A study of Mus musculus with 3 samples.

Results

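The collapsin response mediator proteins, or CRMPs, were followed at the transcript level in NSC-34 cells and in PR20-resistant clones of these cells. The family was taken by gene symbol (Crmp1, Dpysl2, Dpysl3, Dpysl4 and Dpysl5), and 4 of the 5 symbols matched 1 row each among 22976 genes of the counts table. Dpysl4 was matched to no row and is not analysed here. All 4 matched genes passed the filter on low counts, which left 13705 genes for testing. NSC-34 is a mouse cell line, a hybrid of neuroblastoma cells and motor neuron-enriched cells of the embryonic spinal cord, and PR20 is a synthetic chain of proline-arginine repeats of the kind translated from the expanded repeat of C9ORF72. The study holds 1 library of wild-type NSC-34 cells with no treatment, called the control here, and 2 libraries of wild-type cells that became resistant to PR20 spontaneously, called clone 1 and clone 2, which were kept in 10 µM PR20 for 3 weeks. The cells of each group were grown on gelatin in medium with serum. The protocol text attached to the control repeats the PR20 exposure, but its own treatment label is "none". Each resistant library is 1 clone, and the labels do not say whether the clones came from separate cultures. The p-values rest on the spread between the 2 clone libraries, drawn toward a trend over all tested genes. They cover no variation between untreated cultures.

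CRMPs are cytosolic phosphoproteins of developing neurons that bind tubulin dimers and promote microtubule assembly in growing axons. They take their name from collapsin, now called semaphorin 3A: when this guidance cue binds neuropilin and plexin receptors, CDK5 and then GSK3 phosphorylate members such as CRMP2, which lowers their affinity for tubulin and lets the growth cone collapse. The proteins resemble dihydropyrimidinase, an enzyme of pyrimidine breakdown, and assemble into tetramers of mixed members.

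Between 11307034 and 11700755 reads were counted per library, so that 3 counts, the limit a count of 0 would allow, stood for 0.250 to 0.270 CPM (reads of a gene per 1000000 counted reads, scaled by TMM factors as all CPM values here). The neuronal marker list had 8 tested genes, all 8 lower in the clones by the test described below, against 25.8% of all tested genes called lower. Its summed level was 1378 CPM in the control, 289 CPM in clone 1 and 279 CPM in clone 2. All 8 noradrenergic neuroblastoma markers were also lower, with a sum of 1028 CPM against 598 and 524 CPM. Motor neuron markers were scarce in every library, with a summed level of 16.1, 2.40 and 1.89 CPM, and both tested members fell: Slc18a3 had 113, 3 and 1 reads and Isl1 72, 23 and 17 reads (edgeR adjusted p = 2.49e-08 and 0.000182). Mnx1 had 1, 1 and 3 reads in the control, clone 1 and clone 2, and Lhx3 had 1, 0 and 0 reads. Chat had 7 reads in the control and none in the clones, which allows up to 0.267 and 0.270 CPM. None of these 3 genes was tested. Oligodendrocyte markers summed to 3.96 to 6.57 CPM over the 3 libraries and microglia markers to 0.666 to 0.989 CPM; the 2 tested oligodendrocyte genes were not called, and no microglia gene passed the low-count filter. Endothelial markers summed to 31.7 CPM in the control, 15.4 CPM in clone 1 and 17.1 CPM in clone 2, and both tested genes, Kdr and Pecam1, fell. Astrocyte markers summed to 16.9, 7.39 and 7.91 CPM in the same order; of the 2 tested, Slc1a2 fell and Gfap was not called. Fibroblast markers summed to 73.7, 67.2 and 84.2 CPM, and 1 of 4 tested genes, Pdgfra, fell. Over all marker lists 22 of 28 tested genes fell. The part of these marker differences in the CRMP results was not tested.

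All 4 CRMP genes were lower in both resistant clones than in the control, and their order of change ran from Crmp1 through Dpysl3 and Dpysl5 to Dpysl2. By edgeR's quasi-likelihood test with Benjamini-Hochberg adjustment over all 13705 genes at 0.05, 4 of 4 fell and 0 rose, against 25.8% of all tested genes called lower. Both clones lay below the control for each of the 4, as they did for 44.5% of all tested genes. Crmp1 was 5.12-fold, Dpysl3 3.22-fold and Dpysl5 1.98-fold lower, while Dpysl2 was 1.29-fold lower. The summed level of the 4 genes was 1088 CPM in the control, 352 CPM in clone 1 and 328 CPM in clone 2. In bulk RNA, fewer cells of a type and less RNA per cell cannot be told apart.

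**Figure D1:**
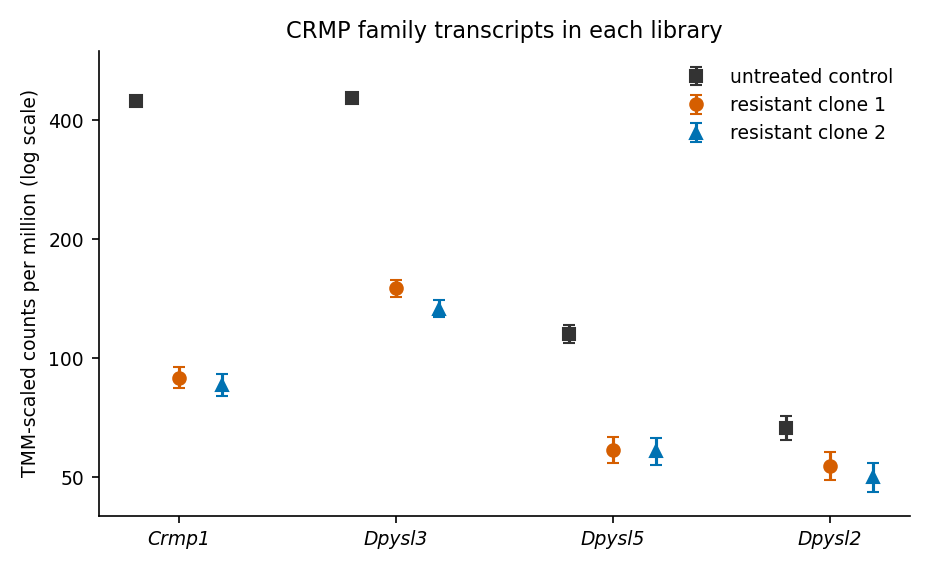
Level of each CRMP gene in the control (square), clone 1 (circle) and clone 2 (triangle), as TMM-scaled CPM on a log axis, with 95% Poisson intervals that cover counting error only; CPM is not per length, so heights are compared within a gene. Crmp1 and Dpysl3 start at 449 and 457 CPM in the control and lie at 85.8 to 150 CPM in the clones, whereas Dpysl2 lies at 66.7 CPM in the control and 49.98 to 53.4 CPM in the clones.

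Crmp1 (ENSMUSG00000029121.15; GRCm38 chromosome 5, 37241940 to 37292133, plus strand) encodes CRMP1, a member that takes part in semaphorin 3A signalling in neurons. It had 5396 reads in the control, 1004 in clone 1 and 955 in clone 2, or 449, 89.4 and 85.8 CPM. The control stood far above both clones, which lay close together. The counting interval of the control was 437 to 461 CPM, and those of the clones were 84.0 to 95.1 and 80.5 to 91.5 CPM. The clone mean was 87.6 ± 2.53 CPM (SD, n = 2). On the log2 scale it differed by -2.36 ± 0.05 (SE; adjusted p = 1.12e-14 by edgeR), and 3.18% of all tested genes had a lower log2 fold change.

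Crmp1 was the gene that fell most, and RefSeq gives it 2 start sites, so both upstream regions are shown. Dpysl5, which lies on the same chromosome and strand, is shown for comparison. No promoter window of Dpysl2 or Dpysl3 was examined. The sequences are from RefSeq on GRCm38.p6, plus strand, 5′ to 3′. Each holds the part of a 300-base promoter window (250 bases before the RefSeq start and 50 after it) that lies before both the RefSeq start and any Gencode M21 exon of the gene within the window. Capitals mark the GC box, GGGCGG, on either strand, a match that 35.7% of the 32851 windows of this length hold at least once.
Crmp1, first start (chr5:37241808-37241939): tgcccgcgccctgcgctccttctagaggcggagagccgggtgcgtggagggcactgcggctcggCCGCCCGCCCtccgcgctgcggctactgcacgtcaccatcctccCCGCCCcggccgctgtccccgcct
Crmp1, second start (chr5:37245514-37245763): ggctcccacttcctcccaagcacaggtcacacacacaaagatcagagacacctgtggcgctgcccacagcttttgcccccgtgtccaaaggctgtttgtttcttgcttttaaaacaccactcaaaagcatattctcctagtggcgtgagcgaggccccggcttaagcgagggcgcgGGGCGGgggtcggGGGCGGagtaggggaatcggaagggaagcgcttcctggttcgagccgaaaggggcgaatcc
Dpysl5 (chr5:30711314-30711563): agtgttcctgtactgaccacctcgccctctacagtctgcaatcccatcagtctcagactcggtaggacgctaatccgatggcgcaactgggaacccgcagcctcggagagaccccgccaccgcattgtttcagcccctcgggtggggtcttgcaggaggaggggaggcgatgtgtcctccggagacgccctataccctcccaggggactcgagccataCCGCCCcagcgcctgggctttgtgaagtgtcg

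The full window at the first Crmp1 start held 5 GC boxes, among them 2 overlapping pairs, and 41 CpG dinucleotides, more than 96.5% of all windows, whose median was 7. The window at the second start held 2 GC boxes and 20 CpG, and that of Dpysl5 held 1 GC box and 19 CpG. The half-site of the cAMP response element, TGACG, was found on either strand once in the first Crmp1 window and in neither of the others, and 20.8% of all windows hold it. The left half-site of the RE1 element, TTCAGCACC, was in none of the 3 windows and in 0.371% of all windows. The TATA box, TATAAA, and the CCAAT box were also in none of the 3, and 13.6% and 37.4% of all windows hold them. The E-box, CANNTG, was absent from the first Crmp1 window and found once in each of the others, and 72.3% of all windows hold it. These matches describe the letters only. Reads were counted per gene, so the start from which the Crmp1 transcripts came is not known.

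Dpysl3 (ENSMUSG00000024501.19; chromosome 18, 43320984 to 43438286, minus strand) encodes CRMP4, a member that also bundles actin filaments. It had 5490 reads in the control, 1689 in clone 1 and 1486 in clone 2, or 457, 150 and 134 CPM. The control was far above both clones, and clone 2 lay below clone 1. The clone mean was 142 ± 11.9 CPM (SD, n = 2), the largest SD of the 4 genes. On the log2 scale it differed by -1.69 ± 0.06 (SE; adjusted p = 3.18e-12 by edgeR), and 5.04% of tested genes had a lower one.

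Dpysl5 (ENSMUSG00000029168.14; chromosome 5, 30711564 to 30799375, plus strand) encodes CRMP5, which is the most divergent member and is known as a target of autoantibodies in paraneoplastic disease. Its 1388 reads in the control, 659 in clone 1 and 648 in clone 2 stood for 116, 58.7 and 58.2 CPM. The clones were nearly equal, at 58.5 ± 0.317 CPM (SD, n = 2), and the control was well above both. Its log2 fold change came to -0.98 ± 0.07 (SE; adjusted p = 7.44e-09 by edgeR), and 10.3% of tested genes had a lower one.

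Dpysl2 (ENSMUSG00000022048.8; chromosome 14, 66802864 to 66868688, minus strand) encodes CRMP2, the member best known for binding tubulin and specifying the axon. It changed least, with 802 reads in the control, 600 in clone 1 and 556 in clone 2, or 66.7, 53.4 and 49.98 CPM. The counting interval of the control was 62.2 to 71.5 CPM, and those of the clones were 49.3 to 57.9 and 45.9 to 54.3 CPM. These intervals cover counting error only and no variation between cultures. Its log2 fold change came to -0.37 ± 0.08 (SE; adjusted p = 0.00111 by edgeR), and 24.7% of tested genes had a lower one.

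In the authors' deposited table, Crmp1, Dpysl3 and Dpysl5 have log2 fold changes of -2.37, -1.70 and -0.99 with adjusted p of 5.20e-106, 4.62e-54 and 6.54e-09, and Dpysl2 has -0.38 with an adjusted p of 0.139. Of the genes with an adjusted p in the authors' deposited table, 9.77% were called lower. DESeq2 run here on the filtered counts likewise called 3 of the 4 lower, against 10.6% of all genes, with an adjusted p of 0.120 for Dpysl2. The 1 control gives no spread of its own: with a preset variation of 20% between libraries, chosen after the data were seen, only Crmp1 and Dpysl3 were called (7.24% of all genes called lower), and with 40% only Crmp1 was (2.83%). Without the low-count filter edgeR called 0 of the 4 (0.0174% of all genes called lower), with adjusted p of 0.0720 for Crmp1, Dpysl3 and Dpysl5 and 0.117 for Dpysl2, although all 4 had an unadjusted p under 0.05 there.

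Between the clones, only Dpysl3 differed by more than counting error. Its log2 ratio of clone 2 to clone 1 was -0.17, with a 95% interval of -0.27 to -0.07. The same ratio was -0.06 for Crmp1 (-0.19 to 0.07), -0.10 for Dpysl2 (-0.27 to 0.07) and -0.01 for Dpysl5 (-0.17 to 0.15). These are exact conditional binomial intervals that cover counting error only. With 1 library per clone there is no replicate check of these differences.

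Because the 4 genes fell by different amounts, the makeup of the CRMP transcript pool differed between control and clones. Within a library, which makes the ratio free of scaling, there were 6.73 reads of Crmp1 per read of Dpysl2 in the control, 1.67 in clone 1 and 1.72 in clone 2. Reads of Dpysl3 per read of Dpysl5 were 3.96, 2.56 and 2.29 in the same order. Reads of Crmp1 per read of Dpysl3 were 0.983 in the control, 0.594 in clone 1 and 0.643 in clone 2. In each of these pairs both clones lay on the same side of the control.

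Levels of different genes were compared per kilobase of transcript. With the union of all annotated exons as length, the level of Dpysl3 was highest in the control (69.1 CPM per kilobase), Crmp1 followed (63.7), and Dpysl5 (15.7) and Dpysl2 (14.8) were far lower. In the clones the levels per kilobase were 21.5 ± 1.80 for Dpysl3, 12.4 ± 0.359 for Crmp1, 11.4 ± 0.542 for Dpysl2 and 7.93 ± 0.0429 for Dpysl5 (SD, n = 2). In the control, the counting intervals of Dpysl5 (14.8 to 16.5 CPM per kilobase) and Dpysl2 (13.8 to 15.8) overlapped, so their order there is not settled, whereas Dpysl2 stood above Dpysl5 in both clones. The counting intervals of Crmp1 and Dpysl2 overlapped in each clone. Crmp1 made up 39.0% of the summed level in the control and 23.4% ± 0.530 in the clones (SD, n = 2), and Dpysl2 9.04% and 21.5% ± 0.0906. Dpysl3 had a share of 42.3% in the control and 40.3% ± 1.31 in the clones.

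The order of Crmp1 and Dpysl3 depends on the length used. Crmp1 has 10 annotated transcripts, the longest of 3051 bases, but its exons together cover 7046 bases. With the longest transcript as length, Crmp1 had the highest level per kilobase in the control (147 against 83.4 for Dpysl3) and in the clones (28.7 ± 0.830 against 25.9 ± 2.18, whose gap is of the order of the SD). Its share was then 55% in the control and 37.2% ± 0.660 in the clones, and that of Dpysl2 was 5.52% and 14.8% ± 0.0103. The share of Dpysl3 turned direction, at 31.2% in the control, 34.4% in clone 1 and 32.6% in clone 2. With this length Dpysl2 also stood below Dpysl5 in the control, and the 2 were nearly level in the clones, at 11.4 and 11.3 CPM per kilobase.

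**Figure D2:**
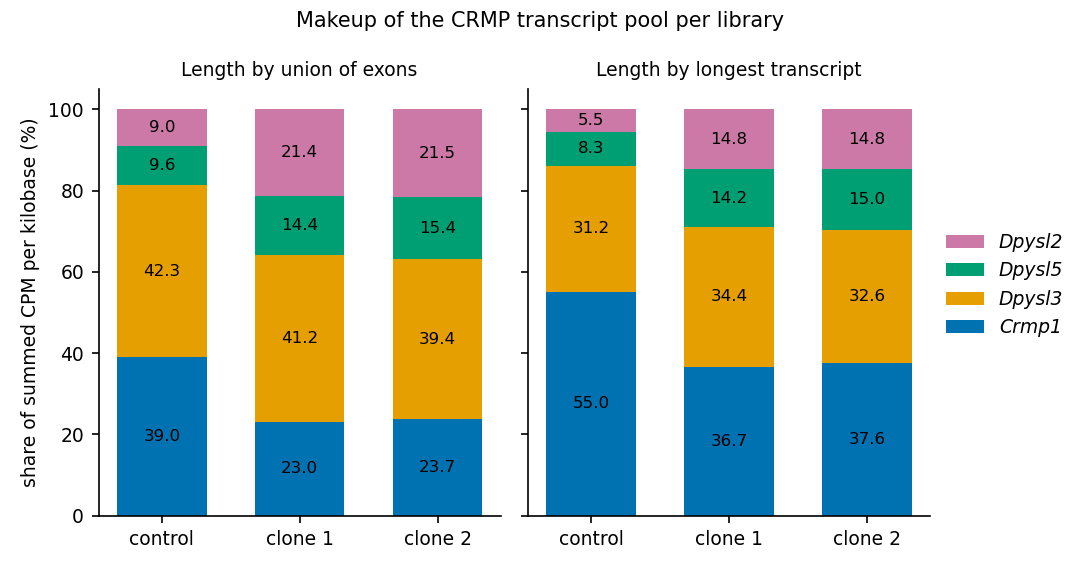
Share of each CRMP gene in the summed CPM per kilobase of the family, in percent, for the control and both clones, with length taken as the union of exons (left) or the longest transcript (right). The share of Crmp1 is lower and that of Dpysl2 higher in both clones than in the control under both lengths, for example 39.0% against 23.0% and 23.7% for Crmp1 on the left.

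No 50-base stretch of any annotated transcript of the 4 genes occurred in a transcript of another gene, in 6986 distinct stretches of Crmp1, 4471 of Dpysl2, 6602 of Dpysl3 and 7373 of Dpysl5. Their exons shared 0 bases with exons of other annotated genes. The Evc gene overlaps Crmp1 on the opposite strand without shared exon bases, and had 73, 75 and 81 reads in the control, clone 1 and clone 2.

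Around each CRMP gene, tested genes moved in both directions. Over all tested genes, 25.8% were called lower and 24.3% higher. Within 1 Mb of Crmp1 the 21 other tested genes had a median log2 fold change of -0.04, and 9 fell and 5 rose. Of these, 3 had a lower log2 fold change than Crmp1. Within 1 Mb of Dpysl5, 14 of 44 genes fell and 7 rose (median -0.12), and 4 had a lower log2 fold change than Dpysl5. Within 1 Mb of Dpysl2, 4 of 17 fell and 3 rose (median -0.001), and 5 had a lower log2 fold change than Dpysl2. For Dpysl3, 3 of 8 fell and 3 rose (median 0.10), and none had as low a log2 fold change; none of the 31 within 5 Mb did. The tested genes of its chromosome as a whole had a median of 0.42, with 188 of 338 higher and 39 lower. Dpysl3 thus went against the direction of that median, while 15 of the 338 had a lower log2 fold change than Dpysl3. The medians of the chromosomes of the other members were -0.08 and -0.01.

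**Figure D3:**
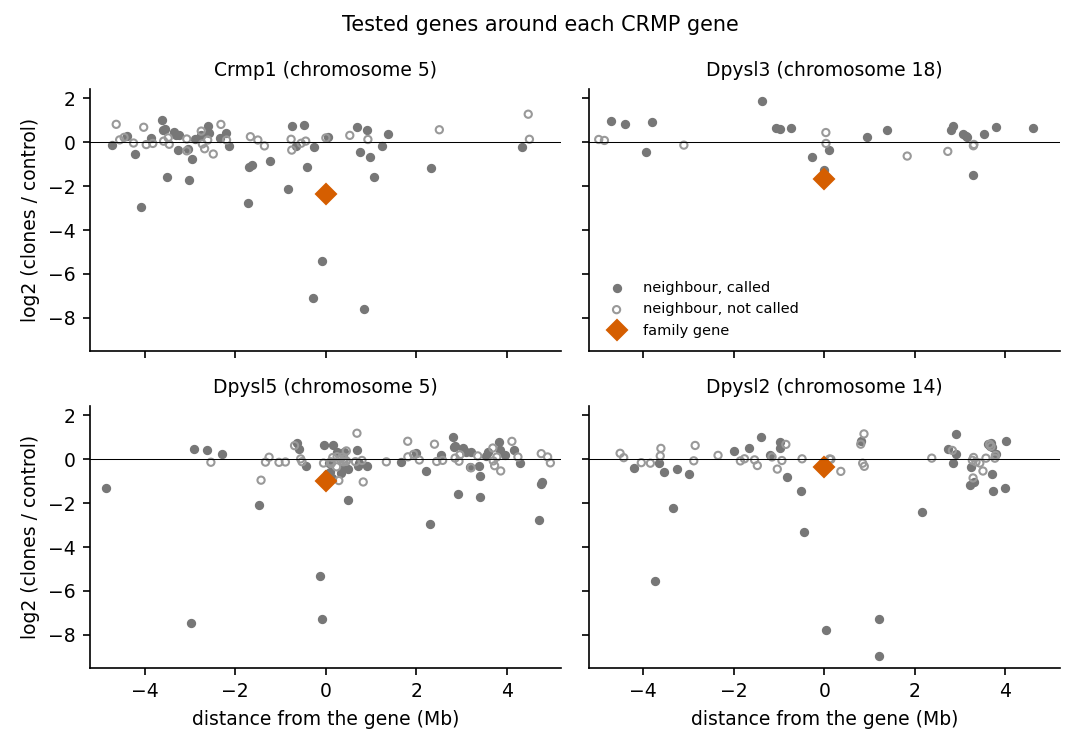
Log2 fold change of clones over control for tested genes within 5 Mb of each CRMP gene, against distance from the gene in megabases, with the CRMP gene as a diamond at 0, called neighbours as filled points and other neighbours as open points. Dpysl3, at -1.69, is the lowest point of its panel, while 5 of 78 neighbours of Crmp1 lie below it.

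Of 41 listed genes with a role around CRMPs, 40 had a row and 37 were tested, and they did not share one direction. By the same edgeR test 12 fell, 13 rose and 12 were not called, against 25.8% of all tested genes called lower and 24.3% called higher. The median log2 fold change of the 37 was 0.04, and that of all tested genes was 0.002. By DESeq2, 6 fell and 9 rose, where 1459 of all 13705 tested genes were called lower and 1578 higher. With the preset variation of 20%, 7 fell and 0 rose (1 at an unadjusted p under 0.05). There 992 of all tested genes were called lower and 156 higher. The lists hold ligands, receptors, modifying enzymes, binding partners and proteases, and they are taken in that order. Dpys, the gene of dihydropyrimidinase itself, was matched to no row and is not analysed here.

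Class 3 semaphorins are the secreted cues upstream of CRMPs. Of 5 tested, 2 fell and 1 rose, against 25.8% of all tested genes called lower and 24.3% called higher. The median on the log2 scale was -0.31. Sema3e fell from 47.9 CPM in the control to 19.9 and 15.1 CPM in clones 1 and 2 (edgeR adjusted p = 1.02e-07). Sema3c fell from 54 reads to 1 in clone 1 and 4 in clone 2. Its fitted log2 fold change of -4.26 became -5.50 without clone 2 and -3.60 without clone 1. Sema3f rose from 39.3 to 47.9 and 53.9 CPM (edgeR adjusted p = 0.00363; DESeq2 adjusted p = 0.170). Sema3a, whose protein gave the CRMPs their name, had 3, 1 and 2 reads and was not tested.

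All 7 tested receptor genes were called, 4 lower and 3 higher, with a median of -0.20. Of all tested genes, 25.8% were called lower and 24.3% higher. L1cam, an adhesion molecule that works as a partner of neuropilin-1, measured 346 CPM in the control, 28.1 CPM in clone 1 and 20.9 CPM in clone 2, which edgeR fitted as a log2 change of -3.82 ± 0.09 (SE; adjusted p = 1.51e-14). The plexins Plxna1, Plxna3 and Plxnd1, the signalling subunits, rose from 127 to 195 ± 3.55, from 147 to 232 ± 9.82 and from 125 to 236 ± 12.1 CPM. Of the ligand-binding neuropilins, Nrp1 fell from 21.2 to 7.43 ± 0.428 CPM and Nrp2 from 96.5 to 83.9 ± 2.56 CPM, the latter with an adjusted p of 0.0204 by edgeR and 0.364 by DESeq2. Both were named after their values were seen, like Plxna4, the remaining receptor that fell (47.3 to 33.2 ± 1.30 CPM; edgeR adjusted p = 0.000243; DESeq2 adjusted p = 0.0589).

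Among 12 kinase and phosphatase genes, 4 fell and 3 rose (25.8% and 24.3% of all tested genes), with a median of 0.05. The largest change was in Cdk5r2, the gene of p39, a neuronal activator of CDK5. It had 1343 reads in the control, 27 in clone 1 and 24 in clone 2, or 112, 2.40 and 2.16 CPM, a difference that edgeR fitted as a log2 change of -5.61 ± 0.12 (SE; adjusted p = 5.73e-15). The activator gene Cdk5r1, which encodes p35, was low in every library (40, 9 and 12 reads) and fell by edgeR (adjusted p = 0.00117) but not by DESeq2 (adjusted p = 0.164). The kinase gene Cdk5 itself was at 48.5 CPM in the control and 52.4 ± 0.467 CPM in the clones and did not pass (edgeR adjusted p = 0.273). Cdk5 and Cdk5r1 were named after their values were seen.

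The GSK3 genes, whose kinases act on CRMPs after CDK5, went in opposite directions. Gsk3a rose from 107 to 152 ± 0.975 CPM, and Gsk3b fell from 148 to 120 ± 3.46 CPM (edgeR adjusted p = 5.08e-06 and 0.000634; DESeq2 adjusted p = 0.0588 for Gsk3b).

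Of 10 genes for CRMP binding partners, 5 rose and 2 fell (24.3% and 25.8% of all tested genes), with a median of 0.16. Cacna1b, which encodes the pore of the N-type calcium channel whose surface level CRMP2 regulates, was at 34.3 CPM in the control, 3.47 CPM in clone 1 and 2.61 CPM in clone 2 and fell by edgeR (log2 change -3.49 ± 0.17, SE; adjusted p = 1.45e-10). Kif5b, a kinesin-1 heavy chain gene, rose from 210 to 300 ± 10.9 CPM. Cyfip1, a WAVE complex gene, and Mical1, which encodes a CRMP-binding actin oxidase, rose from 87.1 to 119 ± 0.875 and from 57.6 to 78.7 ± 3.48 CPM. Of the calpain genes, whose proteases cleave CRMPs, the shared small subunit Capns1 rose from 275 to 397 ± 8.25 CPM. Capn1 and Capn2 stood at 67.2 and 160 CPM in the control and 64.0 ± 0.913 and 166 ± 2.02 CPM in the clones and did not pass.

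**Figure D4:**
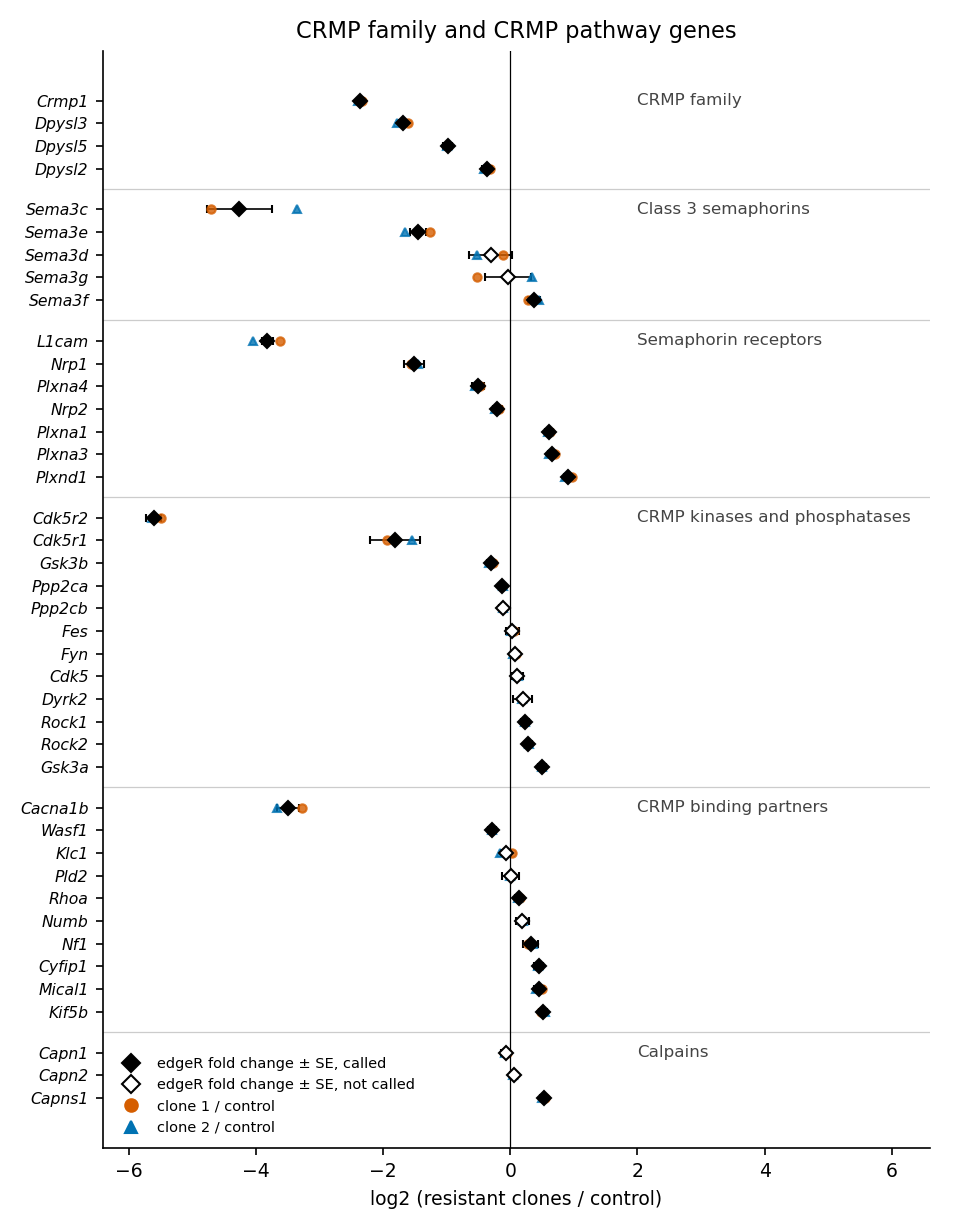
Log2 fold change of clones over control for the 4 CRMP genes and the 37 tested pathway genes, as edgeR estimates with standard errors (diamonds, filled where called) and as the ratio of each clone to the control (circle and triangle, prior count of 1). All 4 CRMP genes lie left of 0, whereas each pathway list but the calpains holds called genes on both sides, with Cdk5r2 farthest left at -5.61.

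The genes most like each CRMP gene were sought by the distance between the pairs of log2 ratios of clone 1 and clone 2 to the control, among 7745 other genes whose mean level was 20 CPM or more. The ratios rest on 3 libraries and share the control, so the likeness is a description. Nearest to Crmp1 were Nsg2 (distance 0.06; 64.4, 13.0 and 12.8 CPM), Hcn2 (0.13) and Gnao1 (0.14), and Nsg2 was the 1 gene within 0.1. Nsg2 encodes a neuronal endosomal protein, Hcn2 a pacemaker channel and Gnao1 the G protein subunit abundant in neurons. Nearest to Dpysl3 were Ogdhl (0.008; 37.2, 12.2 and 10.9 CPM), Rab9 (0.05) and Faim2 (0.08), among 5 genes within 0.1. Dpysl5 had 33 genes within 0.1, led by Smim14, Tmem65 and Atp6v0e2, and Dpysl2 had 294, led by Ier3ip1, Hspa13 and Selenom.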

How the data were processed

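The authors counted reads per gene with the gene counting option of STAR, per the file headers, which name STAR 2.5, Gencode M16 (Ensembl 91) and GRCm38. Per the submitters' processing notes, STAR was version 2.5.3. The library kit keeps strand, per the labels' protocols; which strand was counted is not given in the sources available. The deposited RPM columns were not used for any value. The authors' deposited table, made with DESeq2, gives a fold ratio, a log2 fold change, its standard error (listed as a score), a p-value and an adjusted p-value.

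Groups came from the labels, with 1 control and 2 clones. The test was edgeR 4.0.16 (R 4.3.3; glmQLFit with the legacy option off, after estimateDisp), two-sided, with TMM factors and filterByExpr, adjusted over all 13705 genes. Each gene leaves 1 residual degree of freedom, from the 2 clones, and the fit drew its spread toward a trend over all tested genes. The SE is the log2 fold change over the square root of F. DESeq2 1.42.0, limma 3.58.1, RLE factors, other filters and fits and each clone left out were alternatives. Gene models came from Gencode M21 on GRCm38. Intervals and floors cover counting error only.

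The members and lists were chosen with earlier results of these data known. Pathway genes named are up to 4 called genes per list with the lowest p, all of a list with 3 or fewer tested genes, and 3 like genes per member by distance, predicted genes left out; 1 pathway gene this rule names is not reported here.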

Additional observations from a re-analysis of the deposited data

How the results depend on the processing

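All 4 CRMP genes kept a negative log2 fold change under every alternative, and with RLE factors, a mean CPM of at least 1, the legacy or robust quasi-likelihood fit or limma-voom each kept its call. With DESeq2, Dpysl2 was at -0.37 (adjusted p = 0.120), 1459 genes were called lower and 1578 higher, against 3533 and 3332 with edgeR, and 6 pathway genes were called lower against 12. Without the low-count filter edgeR called 4 genes lower and 0 higher of 22976, with 3416 and 3670 at an unadjusted p under 0.05. There 0 CRMP genes were called (4 of 4 unadjusted), and 0 pathway genes lower and 0 higher (11 and 13 unadjusted; 9 higher and 6 lower by DESeq2), and the log2 fold changes were -2.35 for Crmp1, -0.36 for Dpysl2, -1.68 for Dpysl3 and -0.97 for Dpysl5. No filter together with the legacy fit, added after seeing the data, also gave 0 calls, with 3271 lower and 3289 higher unadjusted, and the same 4 values of -2.35, -0.36, -1.68 and -0.97. The cause was not tested.

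With a preset variation of 20%, added after seeing the data, 992 genes were called lower and 156 higher, 2 CRMP genes, and 7 pathway genes lower and 0 higher (1 higher unadjusted). Dpysl2 was at -0.37 (adjusted p = 0.723) and Dpysl5 at -0.98 (adjusted p = 0.0552). With 40% the counts were 388, 9, 1, 4 and 0 (0 higher unadjusted), and Dpysl2, Dpysl3 and Dpysl5 were at -0.37, -1.69 and -0.98 (adjusted p = 0.9999, 0.296 and 0.9999). Less the median of its chromosome, Crmp1 was at -2.28, Dpysl3 at -2.10 and Dpysl5 at -0.90. Without either clone the log2 fold changes ranged from -2.39 to -2.33 for Crmp1, -1.77 to -1.60 for Dpysl3, -0.99 to -0.98 for Dpysl5 and -0.42 to -0.32 for Dpysl2. The summed level per kilobase in the clones was 32.6% of the control by the union of exons and 28.9% by the longest transcript.

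No paired analysis was possible because the control is 1 library and shares no pairing with the clones. With 1 control, the clones' spread stands in for that of untreated cells, so an adjusted p covers no variation between untreated cultures. The depth of 11307034 to 11700755 reads per library limits the low genes, such as Sema3c, more than the CRMP genes.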
